A study of Saccharomyces cerevisiae with 4 samples.

Results

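Of the 34 nuclear genes examined here, 21 serve charging of tRNA in the cytosol of budding yeast and 13 serve it in mitochondria. They were chosen by gene symbol, all 34 had a spot on the arrays, each had 1 spot, and together they are 34 of 6051 genes and unnamed spots measured. RNA came from Saccharomyces cerevisiae cells with wild-type HSF1 (2 arrays) and from cells with hsf1-R206S/F256S (2 arrays), and every culture had spent 15 min at 39 °C. HSF1 encodes the heat shock transcription factor, and the mutant allele alters 2 of its residues. The labels name no strain background, do not say how either allele is carried, and do not say whether replicates were separate cultures, so errors and p-values cover the spread between arrays alone, which may be technical. No unheated sample was analysed here, so each difference is between strains at 1 temperature.

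An aminoacyl-tRNA synthetase joins an amino acid to the tRNA that carries the matching anticodon, which makes these enzymes the point where the genetic code is read into protein. Yeast mitochondria translate their own small set of messages and use a second group of synthetases, which are encoded in the nucleus and imported. For some amino acids a single gene supplies both compartments, as ALA1, CRS1, GRS1, HTS1 and VAS1 do, and these stand here with the cytosolic set. ARC1 is not a synthetase: its product holds the methionyl and glutamyl enzymes together and helps them bind tRNA.

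Intensities are in arbitrary units after quantile normalization, which gives the 4 arrays the same distribution. Values are printed in a fixed order, wild-type replicates 1 and 2 followed by mutant replicates 1 and 2, and every difference is mutant minus wild type on the log2(intensity + 1.06) scale. A reading was taken to lie above background if it was over 3 times the noise SD of its array. By that limit 40.6% of genes were above background on wild-type replicate 1, 24.9% on wild-type replicate 2, 61.3% on mutant replicate 1 and 41.5% on mutant replicate 2. Dim genes were thus seen most often on mutant replicate 1 and least often on wild-type replicate 2. Wild-type replicate 1 and mutant replicate 2 were nearly equal. The limit lay at normalized intensities of 11.4, 20.8, 5.32 and 10.99, in that order. Pearson's r over all genes was 0.687 for the wild-type pair, 0.813 for the mutant pair and 0.641 to 0.753 for arrays of different strains, with the points being genes and so not independent. The spot of HSF1 read 37.1, -3.61, 625 and 540, a description that does not test the point mutations. The Hsp90 gene HSP82 was 9.62-fold lower and the Hsp70 gene SSA4 9.32-fold lower in the mutant.

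Transcripts of the cytosolic charging machinery were mostly more abundant in the mutant, while those of the mitochondrial enzymes went both ways. In the mutant the mean was higher for 18 of the 21 cytosolic genes, against 50.6% of all genes, counting ALA1, which was below background on all arrays and whose sign comes from values set to 0. The median difference was 1.39 against 0.015 over all genes. The arrays of the strains did not overlap for 15 that were higher in the mutant and 2 that were lower, against 21.2% and 19.3% of all genes. By a fold rule, which asks for at least a 2-fold difference and no overlap between the strains' arrays, 13 of 21 were higher in the mutant, against 13.5% of all genes. In the other direction CDC60 and GUS1 were the 2 that met it, against 12.8% of all genes. Of the 13 mitochondrial genes 7 had a higher and 6 a lower mean, the median was 0.56, and the fold rule was met upward by MSM1 and MSY1 and downward by MSF1. No gene of the 34, and none of the 6051, passed an adjusted p of 0.05 in limma (0% of all genes). At an unadjusted p of 0.05 in limma, 7 cytosolic genes were higher and 2 lower, against 5.7% and 6.03% of all genes, and 1 mitochondrial gene was higher and 1 lower. The lower cytosolic genes included GUS1, with both mutant readings set to 0, and the higher ones ILS1, with both wild-type readings set to 0. Adjusted p-values ran from 0.277 to 0.832 in the cytosolic set and from 0.365 to 0.929 in the mitochondrial set.

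The size of the cytosolic shift depended on how dim spots were treated. 10 of the 21 genes lay below background on both wild-type arrays, 2 of them on all 4 arrays, and none was dim in the mutant alone. Each gene dim on both arrays of a strain was then set at the bound its background allows, or at 0 where there is none. The cytosolic median was 0.40 and the mitochondrial one 0. This put 8 of 21 cytosolic, 9 of 13 mitochondrial and 3322 of 6051 genes at 0. The mitochondrial median of 0, and that of all genes, thus follows from the rule. Over all genes, 1424 were dim throughout the wild type alone and 220 throughout the mutant alone. The part of background in the result was not tested beyond this. Among genes above background on at least 1 array of each strain, where a fold can be given, the mutant mean was higher for 9 of 11 cytosolic genes, 7 were past the fold rule upward against 10% of the 2402 such genes, and 1 met it downward against 10.5%. Their median was 1.31, against 0.027 over those 2402 genes. Of the mitochondrial set 4 genes remained under that condition, none met the fold rule, and the median was -0.37.

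The cytosolic shift had the same sign in every combination of arrays. Taking each mutant array minus each wild-type array, the median over the cytosolic genes lay between 0.99 and 1.61 in the 4 combinations, and that over all genes was 0 in each. For the mitochondrial genes the same medians ran from -0.43 to 0.21, and so differ in sign from one another and fall below the 0.56 obtained from strain means. On the wild-type arrays the cytosolic set's median log2 level exceeded the mitochondrial one by 0.41 and 0.59, and on the mutant arrays by 1.37 and 1.19, so that the strains did not overlap. These are descriptions of sets chosen with earlier results known and carry no p.

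**Figure D1:**
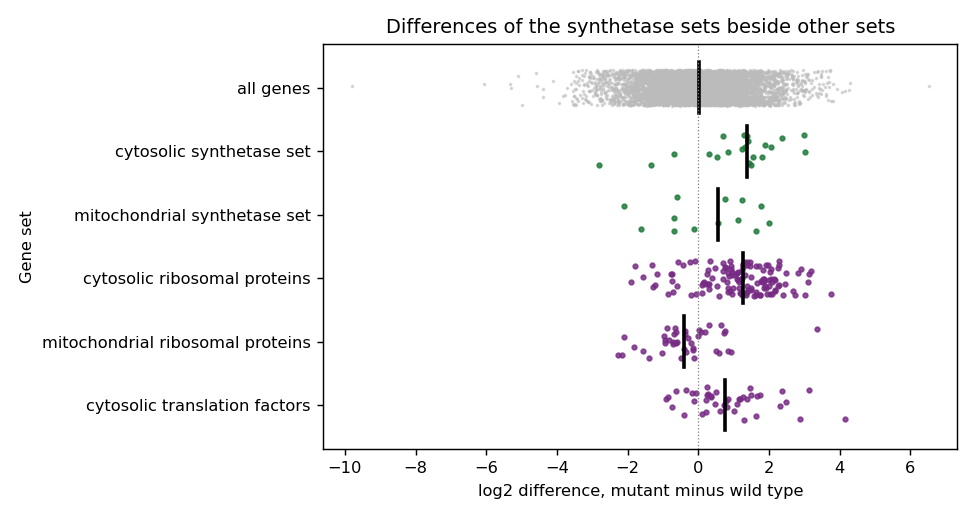
Log2 difference, mutant minus wild type (horizontal axis), of each gene in 6 sets (rows), with 1 point per gene and a black line at the set's median. The cytosolic synthetase set has its median at 1.39, near that of the cytosolic ribosomal protein genes at 1.26, and the mitochondrial synthetase set at 0.56 is spread over both sides of 0.

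Among the enzymes for basic amino acids, the lysyl-tRNA synthetase gene KRS1 (YDR037W) stood well above background on all arrays. Its intensity was 33.7, 39.0, 168 and 100.3, with no overlap between strains, a 3.51-fold higher level in the mutant and a difference of 1.81 (SE 0.46, adjusted p = 0.343 in limma). The arginyl enzyme gene YDR341C read 29.3, 17.6, 61.6 and 62.3. The mutant arrays nearly coincided above both wild-type arrays, of which the second was not above background, and the level was 2.65-fold higher (log2 1.41, SE 0.45). HTS1 (YPR033C), which encodes the histidyl enzyme of both compartments, was above background on mutant replicate 1 alone, at 15.6. It met the fold rule with a difference of 1.43, which came to 0.52 when wild-type replicate 1 was left out and 2.04 when wild-type replicate 2 was, and no fold can be given. It was 0.94 with 4 times the offset and, with cyclic loess (1.18), overlapped between strains, and neither met the rule.

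The enzymes for acidic amino acids and their amides differed among themselves. DPS1 (YLL018C), the aspartyl enzyme gene, read 46.4, 32.7, 95.4 and 43.3, so that the lower mutant array fell between the wild-type arrays, and its difference was 0.71 (SE 0.59). DED81 (YHR019C), for asparagine, read 25.6, 1.32, 37.0 and 21.8. Its strains overlapped, and wild-type replicate 2, not above background, set the size of the difference: it was 1.89 over all arrays, 0.14 without that array and 3.56 without wild-type replicate 1. GLN4 (YOR168W), for glutamine, read 8.63, 14.3, 22.8 and 18.8, with both mutant arrays above both wild-type arrays. Neither wild-type array was above background there, and GLN4 was at least 1.32-fold higher in the mutant. GUS1 (YGL245W), for glutamate, had the lowest difference of the 34 genes, -2.82 (SE 0.39, adjusted p = 0.277 in limma), but none of its 4 arrays was above background. Its wild-type readings were 5.41 and 7.58 and its mutant readings -0.501 and -7.04, so no fold is given, and the difference was -1.33 with 4 times the offset. Both mutant readings were set to 0 before log2, so its SE and adjusted p include no spread between the mutant arrays.

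Genes for the aromatic amino acids were all higher in the mutant without overlap. WRS1 (YOL097C), the tryptophanyl enzyme gene, was above background throughout and read 30.3, 32.4, 84.4 and 74.0. The replicates lay close together in each strain and the level was 2.47-fold higher in the mutant (log2 1.31, SE 0.37, and 0.97 with median scaling, under the fold rule). TYS1 (YGR185C), for tyrosine, read 5.26, 9.40, 19.6 and 26.1, with background reached only in the mutant, and was at least 1.43-fold higher. The phenylalanyl enzyme is built of 2 kinds of subunit, and both genes met the fold rule upward. FRS1 (YLR060W), the beta subunit gene, read 15.5, -1.18, 42.5 and 24.9, and FRS2 (YFL022C), the alpha subunit gene, read 5.26, 3.04, 11.98 and 12.5. FRS1 had the highest difference of the cytosolic set, 3.01 (SE 1.56), yet wild-type replicate 2, not above background, decided its size: it was 1.01 without that array and 4.96 without wild-type replicate 1. FRS2 differed by 1.39 (SE 0.43) with both wild-type arrays below background, so that no fold is given, and by 0.99, under the rule, with 4 times the offset.

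The branched-chain and methionine enzymes held the clearest exception. CDC60 (YPL160W), the leucyl enzyme gene, read 33.97, 29.8, 15.3 and 9.39. Both mutant arrays lay under both wild-type arrays, with mutant replicate 2 not above background, and the level was 2.52-fold lower (log2 -1.33, SE 0.44, adjusted p = 0.416 in limma). Values as deposited, without normalization, gave -0.79, which no longer met the fold rule. VAS1 (YGR094W), the valyl enzyme of both compartments, read 15.7, 3.28, 17.0 and 21.0, a 2.34-fold higher level that rested on wild-type replicate 2, since the log2 difference of 1.23 became 0.25 without it, where it was not above background, and 2.17 without wild-type replicate 1. With 4 times the offset it was 0.92, and with median scaling (1.45) the strains overlapped, so neither met the rule. MES1 (YGR264C), for methionine, read 5.99, 9.12, 10.6 and 11.7, a difference of 0.53 (SE 0.42) without overlap, with both wild-type arrays below background and no bound on the fold. ILS1 (YBL076C), for isoleucine, was above background on mutant replicate 1 alone, at 5.48. Its difference of 2.05 met the fold rule, and became 1.15 without mutant replicate 1 and 2.65 without mutant replicate 2. With 4 times the offset it was 0.86 and no longer met the rule.

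Of the enzymes for small and hydroxylated amino acids, GRS1 (YBR121C), the glycyl enzyme gene, read 11.8, 2.22, 41.6 and 25.6. The strains did not overlap, wild-type replicate 2 was not above background, and the mutant level was 5.20-fold higher (log2 2.38, SE 0.86), though leaving out wild-type replicate 2 gave 1.38 and leaving out wild-type replicate 1 gave 3.29. THS1 (YIL078W), for threonine, read 5.23, 4.20, 15.0 and 15.4. The replicates were tight in both strains and the difference was 1.50 (SE 0.37), but the wild-type arrays were not above background and no fold is given. CRS1 (YNL247W), for cysteine, was above background on mutant replicate 1 alone, at 33.1 against 3.46 on the other mutant array. Its difference of 3.0 (SE 1.23) rested on few arrays: it became 1.67 and 4.49 when mutant replicates 1 and 2, respectively, were left out, and 2.17 when wild-type replicate 2 was. SES1 (YDR023W), for serine, went against the set, with readings of 44.9, 211, 53.9 and 66.4. Here wild-type replicate 2 alone stood apart, and the difference of -0.70 (SE 0.91) became 0.38 without it and -1.75 without wild-type replicate 1. ALA1 (YOR335C), for alanine, was not above background on any array, so it has no direction here.

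The cofactor gene ARC1 (YGL105W) was above background on all arrays and read 84.8, 30.7, 148 and 108. Both mutant arrays lay above both wild-type arrays, and the level was 2.44-fold higher (log2 1.29, SE 0.67). The wild-type arrays differed widely, so that the difference was 0.52 without the second and 1.96 without the first, and it was 0.81 with median scaling. The partners that the Arc1 protein binds read differently, with MES1 at 0.53 and GUS1, below background, at -2.82.

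**Figure D2:**
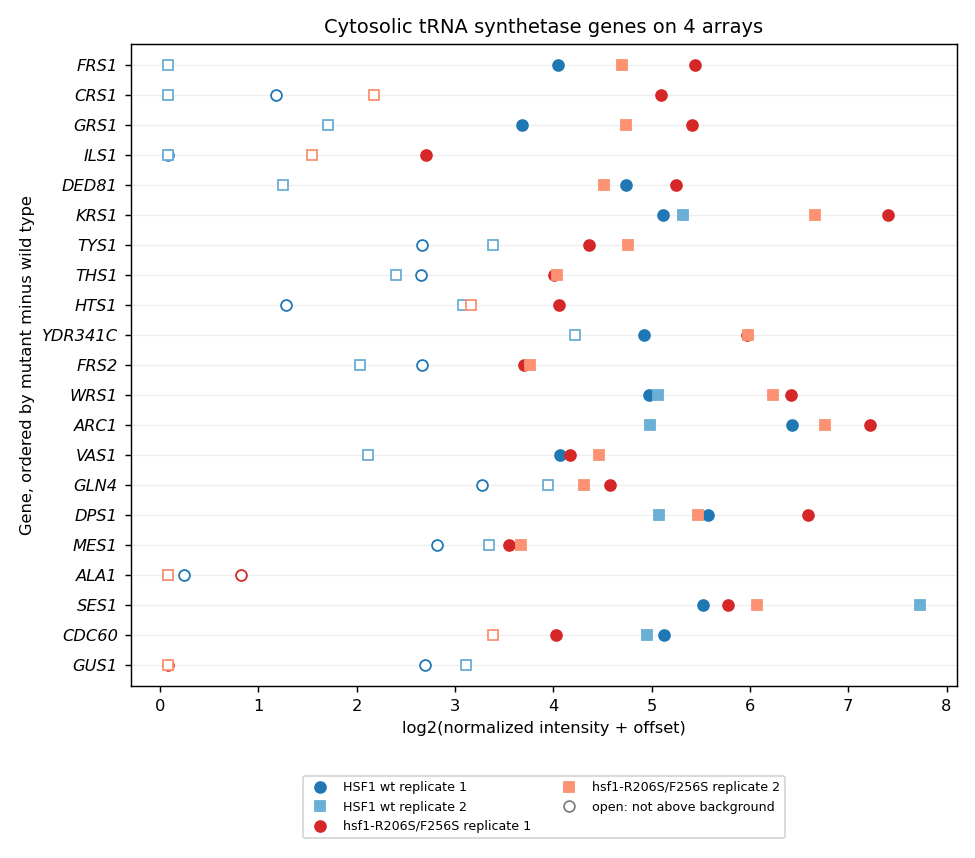
Log2(normalized intensity + offset) (horizontal axis) of the 21 cytosolic genes (rows, ordered by the mutant minus wild-type difference) on each of the 4 arrays, 1 point per array, with open symbols where a spot was not above background. KRS1, WRS1 and ARC1 are filled on all arrays with the mutant arrays to the right, CDC60 has them to the left, and SES1 shows 1 wild-type array far from the other 3.

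The mitochondrial genes were seldom above background, and none of those above it in both strains met the fold rule. 4 of the 13 were above background on wild-type replicate 1, 0 on wild-type replicate 2, 11 on mutant replicate 1 and 3 on mutant replicate 2. The count on mutant replicate 1, the array with the lowest limit, far exceeds that on its partner, so membership above background moved with the array as well as with the strain. MSK1, DIA4 and SLM5 were the 3 that were above background on both arrays of a strain.

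MSK1 (YNL073W), the mitochondrial lysyl enzyme gene, read 32.0, 17.7, 17.4 and 11.7. Both mutant arrays were lower, the second wild-type array and the first mutant array nearly coincided, and the difference was -0.70 (SE 0.51, adjusted p = 0.689 in limma). SLM5 (YCR024C), for mitochondrial asparagine, read 22.8, 14.6, 16.5 and 16.6. Both mutant arrays lay between the wild-type arrays, with a difference of -0.13 (SE 0.43), which was 0.17 without wild-type replicate 1 and 0.47 as deposited. DIA4 (YHR011W), a probable mitochondrial seryl enzyme gene, read 8.61, 4.69, 8.84 and 11.1, a difference of 0.56 (SE 0.47) with both wild-type arrays below background, and 0.18 without wild-type replicate 2.

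Of the remaining mitochondrial genes, MST1 (YKL194C), for threonine, had the closest replicates. It read 12.1, 12.6, 6.96 and 8.64, lower in the mutant without overlap and by -0.60 (SE 0.38), though the sign turned to 0.04 as deposited. NAM2 (YLR382C), whose product charges leucine and also takes part in splicing of mitochondrial introns, read 12.5, -3.25, 13.4 and 10.7. Wild-type replicate 2 stood alone there, and the difference of 1.78 became -0.05 without it and 3.63 without wild-type replicate 1. MSF1 (YPR047W), the single-chain phenylalanyl enzyme gene, met the fold rule downward at -2.09 (SE 0.63) with readings of 7.67, 4.02, -4.94 and 1.23, none above background. MSM1 (YGR171C), for methionine, met it upward at 2.00 (SE 0.97), above background on mutant replicate 1 alone, and came to 0.79 when wild-type replicate 1 was left out and 3.17 when wild-type replicate 2 was. MSY1 (YPL097W), for tyrosine, met it upward at 1.63 (SE 0.46) with no array above background, and not with 4 times the offset (0.69). The enzymes for tryptophan (MSW1), arginine (MSR1), aspartate (MSD1), glutamate (MSE1) and isoleucine (ISM1) were each above background on mutant replicate 1 alone. Their strains overlapped in every case, with differences from -1.64 for MSW1 to 1.23 for ISM1.

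**Figure D3:**
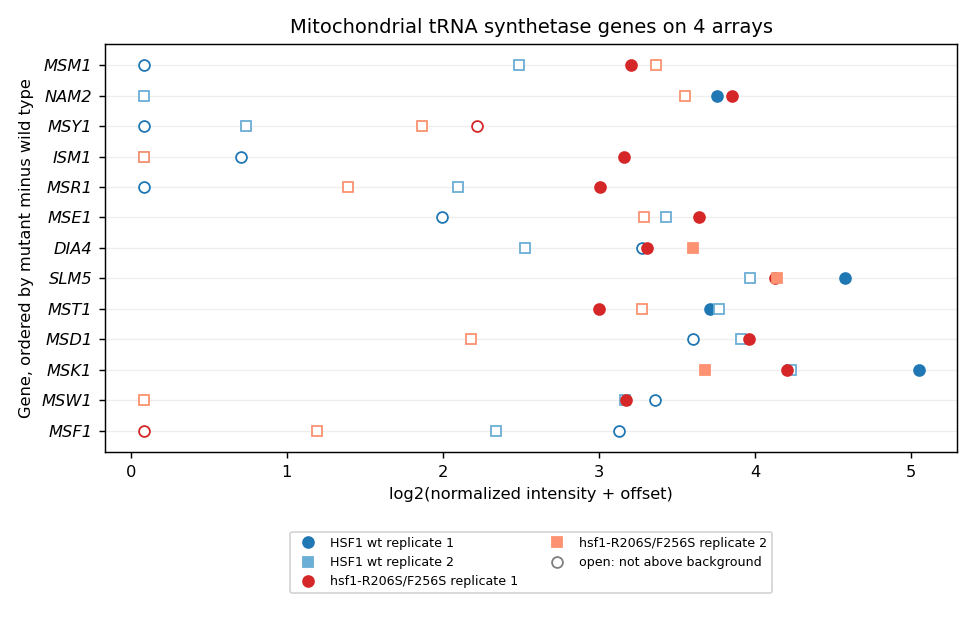
Log2(normalized intensity + offset) (horizontal axis) of the 13 mitochondrial genes (rows, ordered by the mutant minus wild-type difference) on each of the 4 arrays, 1 point per array, with open symbols where a spot was not above background. Most symbols are open apart from those of mutant replicate 1, where 11 of 13 are filled, and the strains overlap for most genes.

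For 13 amino acids both a cytosolic and a mitochondrial enzyme gene were measured, with FRS2 standing for the cytosolic phenylalanyl enzyme. The cytosolic gene had the higher difference in 8 of the 13, and the median gap was 0.82. For lysine, KRS1 differed by 1.81 and MSK1 by -0.70, and for threonine THS1 by 1.50 and MST1 by -0.60. For asparagine, DED81 differed by 1.89 and SLM5 by -0.13. Serine and leucine ran the other way, with SES1 at -0.70 and DIA4 at 0.56, and CDC60 at -1.33 and NAM2 at 1.78. These 5 are the amino acids for which both genes were above background on at least 2 arrays. THS1 and DIA4 reached that on the mutant arrays alone, so the threonine and serine gaps use wild-type readings below background. For 3 of the 5, the gap shrank or turned without wild-type replicate 2 and grew without wild-type replicate 1. Without replicate 2 the asparagine gap was smaller, with DED81 at 0.14 and SLM5 at -0.44. Without replicate 1 they were at 3.56 and 0.17. The leucine gap was smaller without replicate 2, with CDC60 at -1.40 and NAM2 at -0.05, and larger without replicate 1, at -1.21 and 3.63. The serine gap turned without replicate 2, with SES1 at 0.38 and DIA4 at 0.18. Without replicate 1 it was larger in its first direction, at -1.75 and 0.92. Members are not replicates of a condition, so the gaps carry no test.

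**Figure D4:**
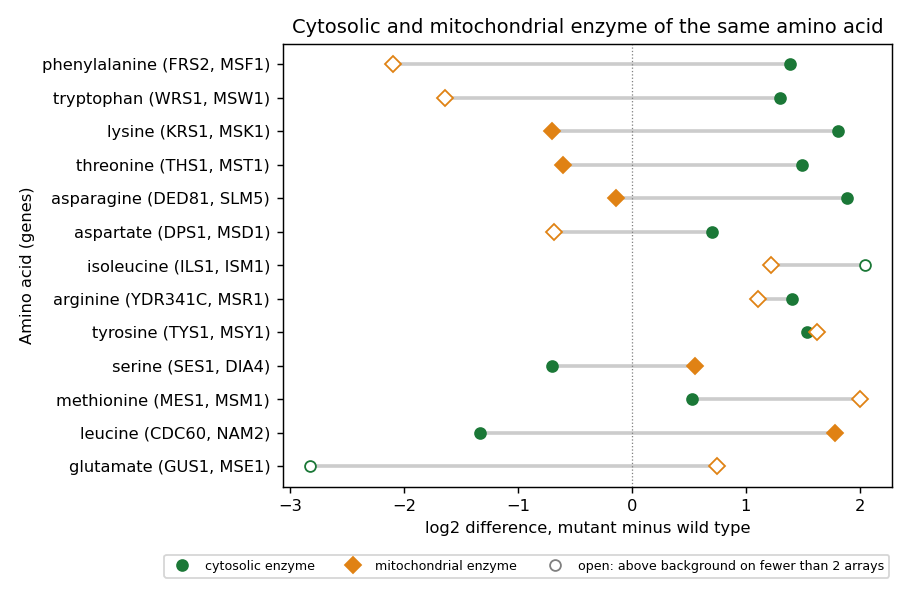
Log2 difference, mutant minus wild type (horizontal axis), of the cytosolic (circle) and the mitochondrial (diamond) enzyme gene of 13 amino acids (rows), joined by a line, with open symbols for genes above background on fewer than 2 arrays. The circle lies to the right of the diamond for 8 of 13 amino acids, and leucine and glutamate show the circle far to the left.

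Other parts of the translation apparatus are given beside these, against the 13.5% of all genes past the fold rule upward and 12.8% downward. Cytosolic ribosomal protein genes had a median difference of 1.26, with 74 of 132 past the fold rule upward and 4 downward. Cytosolic translation factor genes had 0.75, with 15 of 42 past it upward and 0 downward. Mitochondrial ribosomal protein genes had -0.40, with 1 of 42 past it upward and 6 downward, the latter near the share of all genes, and mitochondrial translation factor genes -0.24, with 0 of 8 past it in either direction. No member of any of these 4 lists passed an adjusted p of 0.05 in limma. At an unadjusted p of 0.05, 5.7% of all genes were higher and 6.03% lower. The cytosolic ribosomal list had 49 genes higher and 1 lower at that limit, the cytosolic factors 11 and 0, and the mitochondrial ribosomal list 0 and 4. The difference between these lists and the synthetase sets was not tested.

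Genes that act on tRNA before and after charging were mixed. Of 54 genes of tRNA processing and modification, the median was 0.65, and 15 were past the fold rule upward and 7 downward, against 13.5% and 12.8% of all genes. The downward count is near that share, and none of those 7 genes was above background on both arrays of a strain, so none is named. Of these 54 genes, 8, 2, 33 and 15 were above background on the 4 arrays in order. Few genes could therefore be named through the wild-type arrays, so the lack of a named lower gene says little about those genes. The 1 gene above background on all arrays met the rule upward, 2.80-fold higher. TRM8, a subunit of a tRNA guanine methyltransferase, was at least 1.94-fold higher in the mutant, and TRM2, a tRNA uracil methyltransferase gene, at least 1.25-fold. TRZ1, which trims tRNA 3′ ends, and SEN54, a splicing endonuclease subunit gene, met the rule at 2.67 and 2.25, with no wild-type array above background. Among 5 genes of tRNA export and channelling, the median was 0.21, and 2 met the rule upward and 1 downward, against 13.5% and 12.8% of all genes. The downward gene was not above background on both arrays of a strain and is not named. On wild-type replicate 2, 0 of the 5 were above background, so none could be named through the wild type. LOS1, the nuclear tRNA exporter gene, read 12.7, 4.13, 30.0 and 31.2, 3.74-fold higher without overlap but with wild-type replicate 2 not above background. UTP8 was at least 1.22-fold higher. Of 22 genes of RNA polymerase III and its factors, which transcribe tRNA genes, 6 met the rule upward and 3 downward, the latter near the 12.8% of all genes. SPT15, the TATA-binding protein gene, was 2.75-fold higher, again with wild-type replicate 2 not above background, TFC6, a TFIIIC subunit gene, met the rule at 2.01 with no wild-type array above background, and RPC31, a polymerase subunit gene, was at -1.85.

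Sensing of uncharged tRNA runs through the kinase Gcn2, which leads to translation of GCN4, the activator of amino acid synthesis genes. GCN4 transcript read 70.7, 70.9, 345 and 92.8, so both mutant arrays were higher but mutant replicate 1 set most of the difference of 1.33 (SE 0.80). It was the 1 gene of that list of 5 above background on both arrays of a strain, and 2 of the 5 were below it on all arrays. The fold rule was met upward by 2 of the 5 and downward by 0, against 13.5% and 12.8% of all genes. In the cytosolic factor list, the elongation factor genes TEF4 and YEF3 were 5.60-fold and 5.20-fold higher, each with wild-type replicate 2 not above background, while GCN3 and GCD11, initiation factor genes, were at least 1.14-fold and 1.23-fold higher. These were named for the size of their differences. Other genes of that list met the rule with all arrays above background, from 2.27-fold to 3.35-fold higher, and 0 met it downward.

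Among other genes of aminoacylation, the amidotransferase that converts misacylated glutamyl-tRNA in mitochondria was represented by PET112, HER2 and GTF1. PET112 read 160.0, 149, 81.1 and 98.8, lower in the mutant without overlap at -0.78 (SE 0.38), and under the 2-fold limit. GTF1 differed by 0.08 (SE 0.43) with all arrays above background, and HER2 was above background on 1 array. The remaining members of the list were dim. The prolyl enzyme gene YHR020W was above background on 1 array, and AIM10, its mitochondrial counterpart, GRS2, a glycyl enzyme paralog, and FMT1, which formylates the mitochondrial initiator, on 0. Of these 7 genes YHR020W met the fold rule upward, at 1.67, and AIM10 downward, at -1.70, counts near the 13.5% and 12.8% of all genes.

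**Figure D5:**
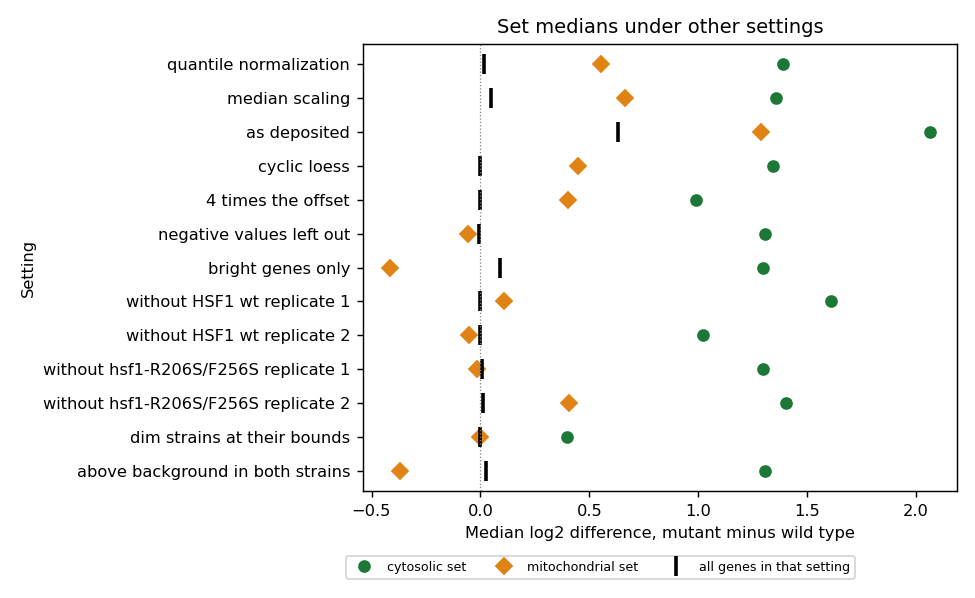
Median log2 difference, mutant minus wild type (horizontal axis), of the cytosolic and mitochondrial synthetase sets and of all genes under 13 settings (rows). The cytosolic median stays to the right of 0 and of the all-gene median in each, from 0.40 to 2.07, while the mitochondrial one falls on either side of 0.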

How the data were processed

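Total RNA of 4 samples was copied with an oligo(dT) primer and radiolabelled dCTP, per the labels, with 1 sample per array. The authors deposited 1 linear intensity per spot, with negative numbers on every array and array means of 32.4 to 32.6. How background and scale were set is not stated in the labels.

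GEO's platform annotation named 5523 of 6084 spots. All 5523 were matched to current symbols by gene identifier. Quantile normalization used limma 3.58.1 (R 4.3.3), values below 0 were set to 0, and 1.06 (percentile 5 of positive values) was added before log2. Spots of a gene were averaged. Strains were compared with limma (lmFit, eBayes, two-sided, Benjamini-Hochberg over 6051 genes, 2 residual and 1.54 prior degrees of freedom). The scripts were tested on simulated data. Noise SD per array was the median size of the negative values over the normal quartile. "At least N-fold" sets the dim strain at the higher of its limit and its value. The number of arrays limits the precision.

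All members were named. Values on all arrays were printed for those above background on both arrays of a strain, and pathway genes were named if they also met the fold rule, at most 4 per list and direction. Members and lists were chosen with earlier results of these data known. Promoter and protein sequences were not used here. Samples with the same replicate number were not taken as paired.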

Additional observations from a re-analysis of the deposited data

How the results depend on the processing

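The cytosolic median of 1.39 was 2.07 as deposited, where the median of all genes was 0.63, and 0.99 with 4 times the offset. It lay between 1.02 and 1.61 without 1 array and at 0.40 with dim strains at their bounds. The mitochondrial median of 0.56 was 1.29 as deposited, -0.056 with negative values left out, -0.42 over its 2 bright genes, -0.37 over its 4 genes above background in both strains, 0 at the bounds and -0.053 to 0.41 without 1 array (-0.053 without wild-type replicate 2, -0.017 without mutant replicate 1), so its direction is not settled. The gap between these medians, 0.83, was 0.69 with median scaling, 0.59 with the larger offset, 1.36 with negative values left out, 1.71 over bright genes, 0.40 at the bounds, 1.67 over genes above background in both strains and 1.0 to 1.50 without 1 array. Bright genes are the 2222 whose mean level over the 4 arrays exceeds the mean limit. Settings with bounds and with background in both strains were chosen after seeing the data. At the bounds 9 of 13 mitochondrial genes were set to 0, so that median of 0 follows from the rule.

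Cytosolic genes past the fold rule upward numbered 13, and 17 as deposited, 10 with median scaling and 9 with 4 times the offset. There were 7 of 12 over bright genes and 7 of 11 with background in both strains. Downward there were 2, and 1 as deposited, with negative values left out, over bright genes and with background in both strains. For the mitochondrial set, 2 upward became 6 as deposited, 1 with the larger offset, 0 over bright genes and with background in both strains, and 2 to 5 without 1 array. There 1 downward became 2 with cyclic loess, and 0 over bright genes and with background in both strains. Counts without 1 array are not given, as no overlap is easier to meet there. In the planned settings that gave them a value, CRS1, FRS1, GRS1, KRS1, THS1, TYS1 and YDR341C always met the rule upward and GUS1 and MSF1 downward. Of these, GUS1 and MSF1 were below background on all arrays, CRS1 on all but mutant replicate 1, and THS1 and TYS1 on both wild-type arrays. FRS1 met the rule narrowly, at 1.01, without wild-type replicate 2. As deposited, 28.1% of all genes met it upward and 5.59% downward, against 13.5% and 12.8% after normalization. The shares were 14.8% and 12.8% with median scaling, 13.4% and 14% with cyclic loess, and 8.87% and 7.8% with 4 times the offset. They were 13.1% and 14.8% with negative values left out, 12.7% and 9.9% over bright genes, and 10% and 10.5% with background in both strains.

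The count of genes past an adjusted p of 0.05 in limma was 0 (710 at an unadjusted p of 0.05), and 12 over bright genes alone, none of them a member. Of 304 member values under the planned settings that can move them (all but the block and the bright genes), 293 kept their direction, and ALA1 and ISM1 were exactly 0 without mutant replicate 1. The 9 reversals were MST1 at 0.037 and SLM5 at 0.47 as deposited, NAM2 at -0.056 with negative values left out, and 6 that left out an array: ALA1 (-0.25 to 0.65 over the 4 such fits), SES1 (-1.75 to 0.38) and NAM2 (-0.053 to 3.63) turned without wild-type replicate 2, SLM5 (-0.44 to 0.17) without wild-type replicate 1, MSR1 (-0.017 to 2.22) without mutant replicate 1 and MSD1 (-1.74 to 0.20) without mutant replicate 2. The cause was not tested. With the replicate number as a block, the paired fit called 0 genes and left the medians at 1.39 and 0.56, with 510 genes at an unadjusted p of 0.05. Same-numbered arrays deviated together with r = 0.02 across genes. Normalization removes shifts shared by a whole array, so this value cannot decide whether the numbers pair the samples.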

Other observations

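Synthetases fall into 2 structural classes with unrelated catalytic folds, and the sets were also read by class, a split made after the values were seen and given without a test. In the cytosolic set, the mutant mean was higher for 8 of 10 class I genes and 9 of 10 class II genes, with medians of 1.27 and 1.46. Both genes that met the fold rule downward, CDC60 and GUS1, are class I. In the mitochondrial set, 6 of 7 class I genes had a higher mean, with a median of 1.23 and MSW1 the exception at -1.64, and 1 of 6 class II genes did, with a median of -0.64 and DIA4 the exception at 0.56. Over all genes, the mutant mean was higher for 50.6%. Under other settings the sign turned for ALA1 and SES1 (cytosolic) and for NAM2, MSR1, MST1, MSD1 and SLM5 (mitochondrial). Most of these mitochondrial spots were below background, and ARC1 belongs to neither class.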
